A study of Homo sapiens with 9 samples.

Results

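The data describe Ako-3, a single clone of the human hepatoma line Huh-7 in which *APOB* was knocked out, against the parental Huh-7 cells (control). The comparison used 6 of the 9 RNA-seq libraries of the series, 3 of Ako-3 and 3 of control, and covered all genes. The other 3 libraries came from Mko-3, a single Huh-7 clone deficient in *MTTP*, and served here only to separate what Ako-3 alone changed from what both clones changed. Control cells were wild type, Ako-3 cells carried the *APOB* knockout and Mko-3 cells the *MTTP* knockout. The knockout in Ako-3 was made with Cas9 protein loaded with guide RNAs against exon 6 of *APOB*. All cells were kept in DMEM with fetal bovine serum and then held overnight without serum before RNA was taken. The libraries are labelled as biological replicates, but the 3 libraries of each knockout came from 1 clone, so a difference between clones and an effect of the lost gene cannot be told apart. The p-values measure only the spread between libraries. Whether the Mko-3 libraries were prepared and sequenced together with the other 6 is not given in the sources used here.

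Huh-7 cells keep much of the program of hepatocytes, the cells of the liver that make most plasma proteins, assemble lipoproteins, conjugate drugs and steroids and run the urea cycle. *APOB* encodes apolipoprotein B, the large structural protein around which the liver builds very low density lipoprotein. The triglyceride transfer protein encoded by *MTTP* loads lipid onto apolipoprotein B in the endoplasmic reticulum, so either gene is needed to secrete these particles.

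The targeted exon is shown because the guide RNAs were directed at it. The sequence is the unedited reference, so it does not show the changes carried by the clone. Exon 6 of the 29 exons of *APOB* spans chr2:21037100-21037255 of hg38 on the minus strand and is 156 bases long, which is 52 whole codons, and it starts after 537 coding bases. Below it is written 5′ to 3′ on the coding strand with the exon in capitals and 20 intronic bases in lower case on each side.
APOB exon 6: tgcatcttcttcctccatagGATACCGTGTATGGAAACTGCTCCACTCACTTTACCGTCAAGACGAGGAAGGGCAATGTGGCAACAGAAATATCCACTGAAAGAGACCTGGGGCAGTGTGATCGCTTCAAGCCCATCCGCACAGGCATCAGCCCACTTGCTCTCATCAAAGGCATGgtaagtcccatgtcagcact

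*APOB* mRNA was lower in every Ako-3 library but far from absent. Its level was 2683, 3508 and 3871 CPM (read counts scaled by library size and composition) in the 3 control libraries and 1420, 1258 and 1266 CPM in Ako-3. The groups did not overlap, with a log2 fold change of -1.36 ± 0.13 (SE) and an adjusted p of 7.13e-05. Mko-3 lay within the range of control, at 3115, 3408 and 3250 CPM, and the direct test of Ako-3 against Mko-3 gave -1.31 ± 0.04 (adjusted p = 4.16e-28). *MTTP* was 635, 603 and 663 CPM in control and 600, 576 and 542 CPM in Ako-3, a difference of -0.16 ± 0.06 on the log2 scale, while Mko-3 held 87.3, 90.7 and 82.9 CPM.

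A gene was called when its absolute log2 fold change was at least 1 and its Benjamini-Hochberg adjusted p was at most 0.05 in edgeR's quasi-likelihood test. Of 15787 genes tested, 556 rose in Ako-3 (3.52%) and 789 fell (5.00%), and the median log2 fold change over all of them was -0.01. A positive log2 fold change was held by 49.3% of all genes tested. Control and Ako-3 libraries did not overlap for 541 of the rises and 763 of the falls. A call favours genes with separated libraries, so these counts are not separate support. The falls lay at lower levels (median 0.799 FPKM, against 1.46 FPKM for the rises and 4.20 FPKM for all genes tested). Only 65.8% of the falls were protein coding, against 82.0% of all genes tested. Among the falls 88 genes were annotated as antisense, and their reads cannot be told from those of the opposite strand because the use of strand in counting is not given in the sources used here. In the direct test against Mko-3, 539 of 15528 genes were higher in Ako-3 (3.47%) and 351 were lower (2.26%). Of the 15309 genes tested in both fits, 161 were higher in Ako-3 than in both other groups (1.05%) and 124 were lower than in both (0.810%). Of these genes, called here specific to Ako-3, 6 rises and 11 falls were also called in the same direction in Mko-3 against control. The genes specific to Ako-3 made up 29.0% of all rises and 15.7% of all falls. All 556 rises but only 607 of the 789 falls were tested against Mko-3, so these shares cannot be compared with each other. The pair of fits shares the Ako-3 libraries, so they are not independent.

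Libraries held 14638727 to 20179760 gene counts. The mitochondrial share of counts was 7.06 to 7.40% in Ako-3 and 5.52 to 6.17% in control. Hepatocyte markers were present throughout, with 7 of 7 above 1 FPKM and a summed level of 4704 to 4860 FPKM in control and 5349 to 5574 FPKM in Ako-3. Markers of stellate cells and fibroblasts were above 1 FPKM in 0 of 7 cases in both groups. Of the cholangiocyte and progenitor markers 4 of 7 passed, with sums of 142 to 149 FPKM in control and 141 to 148 FPKM in Ako-3. Of the endothelial markers 1 of 6 passed, with sums of 9.93 to 11.4 FPKM and 13.5 to 14.7 FPKM. Of the macrophage and leukocyte markers 2 of 6 passed and 2 were at 0 in all 6 libraries, with sums of 150 to 163 FPKM and 186 to 203 FPKM. The macrophage and leukocyte sum was mostly *LYZ*, at a mean of 155 FPKM in control and 187 FPKM in Ako-3. All libraries came from Huh-7 cultures, and the part of other cell types in the results was not tested. Replicate 2 of control stood apart from the other control libraries in genes of the replication fork, as given with that list, and leaving it out changed the counts to 660 rises and 977 falls. In bulk RNA, fewer cells expressing a gene and less RNA per cell cannot be told apart.

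Across liver functions the changes went in both directions. A total of 31 lists of liver genes with 865 symbols held 736 genes tested, with a median log2 fold change of 0.03. Of these 65 rose (8.83%, beside 3.52% of all genes tested) and 57 fell (7.74%, beside 5.00%). Of the listed genes, 26 were higher in Ako-3 than in both control and Mko-3 and 13 were lower than in both. Over all genes tested in both fits these shares were 1.05% and 0.810%. The shares over all genes are the background for the count of every list below. Some lists lay near them, such as hepatocyte lineage transcription factors with 4.76% rises. The highest list medians belonged to replication genes and to secreted plasma proteins, and the lowest to chemokines with NF-kB genes and to ATF4 targets. In the plot of list medians, Ako-3 and Mko-3 lay close together for ATF4 targets and far apart for plasma carriers, protease inhibitors, apolipoproteins and complement. Both sets of values used the same control libraries.

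**Figure D1:**
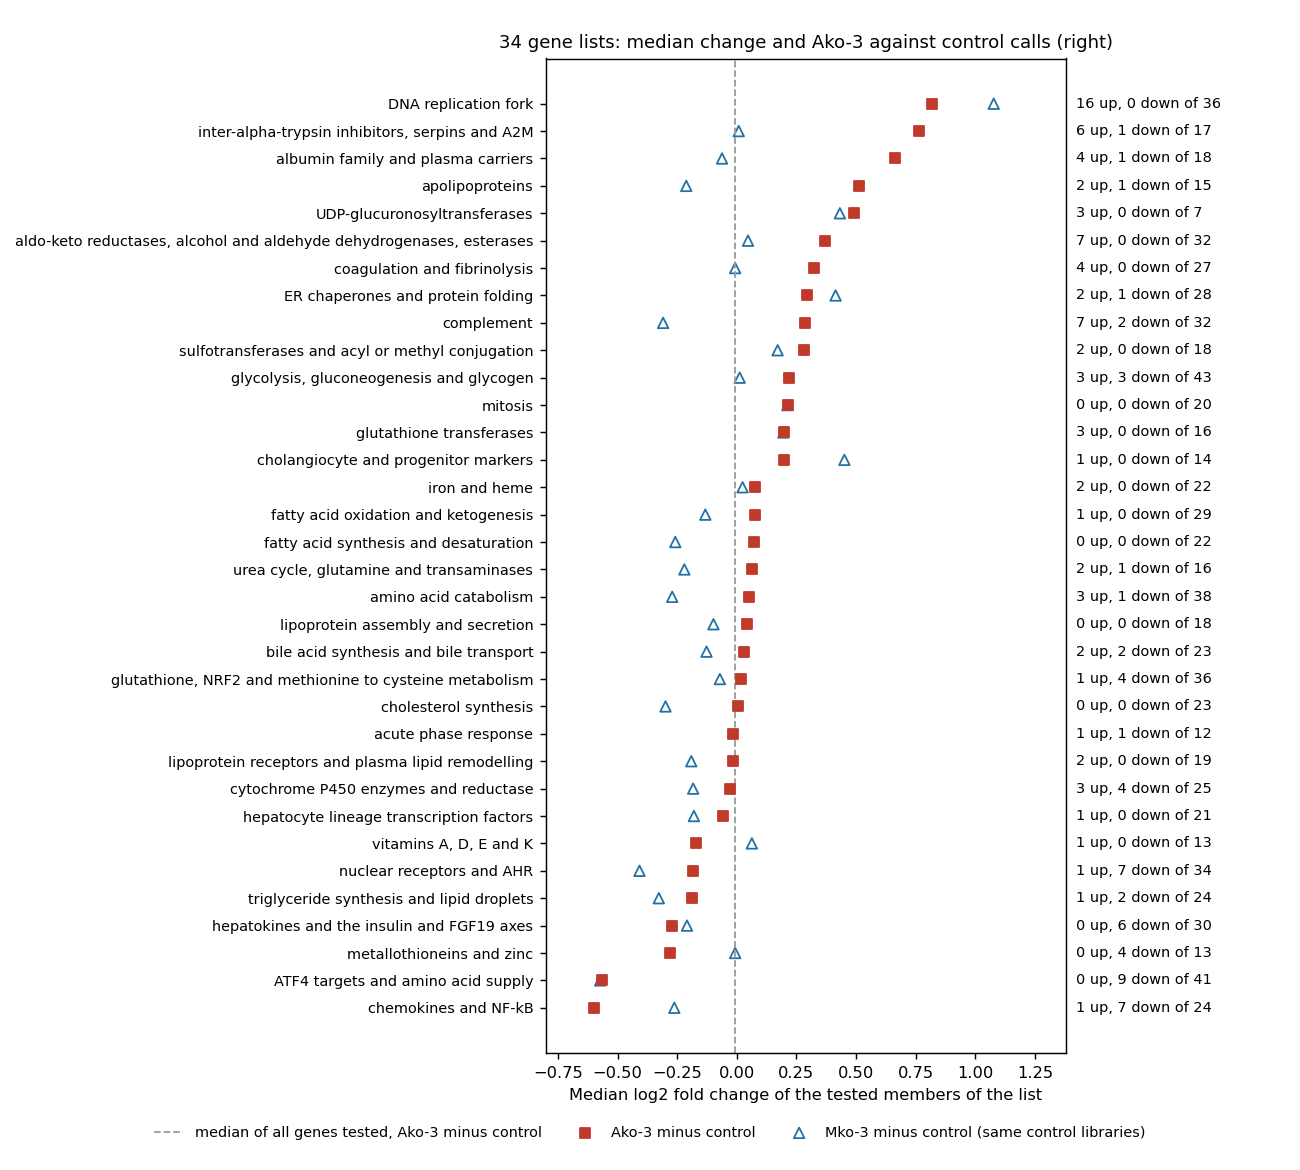
Median log2 fold change of the tested members of 34 gene lists for Ako-3 minus control (red squares) and Mko-3 minus control (blue open triangles), with the dashed line at the median of all genes tested and the numbers of members called in Ako-3 at the right. The list of inter-alpha-trypsin inhibitors, serpins and A2M sits at 0.77 in Ako-3 and 0.01 in Mko-3, whereas ATF4 targets sit at -0.57 in both.

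Plasma carriers are the proteins that transport hormones, heme and vitamins in blood. Of 18 tested, 4 rose, 1 fell and 15 had a positive log2 fold change, with a median of 0.66 beside -0.06 in Mko-3. *HPX*, hemopexin, which binds free heme, was 24.5, 27.7 and 20.1 CPM in control and 53.3, 53.6 and 60.1 CPM in Ako-3. Mko-3 stayed at 24.5, 23.8 and 24.9 CPM, so the rise of *HPX* (1.20 ± 0.10, adjusted p = 6.27e-09) was specific to Ako-3 by the direct test (1.19 ± 0.07, adjusted p = 1.86e-24). *ORM2*, an orosomucoid that carries basic drugs, rose from 31.4, 30.2 and 35.5 CPM to 63.0, 66.3 and 72.4 CPM. Its log2 fold change of 1.04 ± 0.08 fell just under the threshold without replicate 3 of Ako-3, at 0.99. *GC*, the vitamin D binding protein, and *SERPINA7*, thyroxine-binding globulin, rose in both clones. *SERPINA7* went from 6.66, 7.99 and 7.83 CPM to 34.4, 32.8 and 32.4 CPM in Ako-3 and to 20.2, 19.5 and 20.9 CPM in Mko-3. The reverse direction was seen for *SHBG*, the sex hormone carrier, at 2.58, 2.18 and 1.5 CPM in control and 0.794, 0.509 and 0.753 CPM in Ako-3. The groups overlapped for albumin, with *ALB* at 8345 to 8861 CPM in control and 8658 to 9063 CPM in Ako-3 (0.02 ± 0.05, adjusted p = 0.751). *TTR*, transthyretin, was higher in every Ako-3 library but below the fold threshold (0.90 ± 0.07).

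Inhibitors of proteases showed the highest median of the liver lists. Of 17 genes tested, 6 rose, 1 fell and 15 had a positive log2 fold change, with a median of 0.77, beside 0.01 in Mko-3. *ITIH2*, a heavy chain of the inter-alpha-trypsin inhibitor that is coupled to hyaluronan, was 280, 378 and 299 CPM in control, 1021, 1014 and 1006 CPM in Ako-3 and 410, 464 and 426 CPM in Mko-3. Control and Ako-3 did not overlap (1.66 ± 0.09, adjusted p = 1.49e-09), and Ako-3 was also above Mko-3 (1.23 ± 0.04, adjusted p = 2.57e-41). *A2M*, alpha-2-macroglobulin, which traps proteases of many classes, rose from 35, 27.7 and 39.2 CPM to 108, 90.4 and 100 CPM, a log2 fold change of 1.54 ± 0.11 (adjusted p = 2.32e-08). In Mko-3 *A2M* was 18.1, 19.0 and 17.2 CPM, below control. *SERPING1*, the C1 inhibitor, *ITIH5*, *ITIH1* and *SERPINA4* also rose. *SERPING1* was 62.3, 53.6 and 65.5 CPM in control, 139, 138 and 128 CPM in Ako-3 and 126, 115 and 124 CPM in Mko-3. *SERPINA3*, antichymotrypsin, was the fall, from 4.35, 4.95 and 5.61 CPM to 2.57, 2.09 and 2.84 CPM, and its log2 fold change was -0.90 without replicate 3 of control and -0.88 without replicate 2 of Ako-3.

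Complement, coagulation and acute phase genes moved unevenly. Of 32 complement genes tested 7 rose and 2 fell, with a median log2 fold change of 0.29 in Ako-3 and -0.31 in Mko-3. The rises specific to Ako-3 were *C4BPA*, *C7*, *CFHR2* and *CFHR5*. *C4BPA*, a chain of the C4b-binding protein that restrains the classical pathway, went from 70.3, 52.7 and 73.9 CPM to 167, 160 and 150 CPM and stayed at 59.2, 59.9 and 61.7 CPM in Mko-3. Its log2 fold change was 1.27 ± 0.10 against control (adjusted p = 2.40e-07) and 1.40 ± 0.05 against Mko-3 (adjusted p = 1.18e-36). *CFHR5*, a factor H related protein, rose from 1.83, 3.10 and 3.55 CPM to 9.16, 10.0 and 10.8 CPM. *C1S*, a protease of the C1 complex, and *MBL2*, mannose-binding lectin, rose in both clones, at 1.22 ± 0.07 and 1.19 ± 0.12 in Ako-3. *CD55*, which protects cells from complement, fell by 1.56 on the log2 scale, and *C8B*, a subunit of the lytic pore, fell by 1.18. *C3*, the central component and the most abundant of these transcripts, was 5311, 5063 and 5541 CPM in control and 5635, 5470 and 5344 CPM in Ako-3.

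Of 27 coagulation and fibrinolysis genes tested 4 rose, with a median of 0.32, beside -0.01 in Mko-3. *PLG*, the precursor of the clot-dissolving protease plasmin, was 6.07, 6.93 and 6.99 CPM in control, 22.4, 21.5 and 21.5 CPM in Ako-3 and 4.08, 3.26 and 3.79 CPM in Mko-3. It was therefore higher in Ako-3 than in both groups, at 1.70 ± 0.12 (adjusted p = 3.94e-10) and 2.56 ± 0.13 (adjusted p = 9.63e-29). *CPB2*, which slows fibrinolysis, rose in both clones. *PROC*, the anticoagulant protein C, rose in Ako-3 to 140, 151 and 145 CPM from 56.4, 57.5 and 49.8 CPM and was 83.5, 81.8 and 77.3 CPM in Mko-3. The fourth rise, *F8*, was 0.90 with an adjusted p of 0.058 without replicate 1 of control. *F2*, prothrombin, was higher in each Ako-3 library without reaching the fold threshold (0.48 ± 0.06). The 12 acute phase genes tested had a median of -0.02. Among them *HP*, haptoglobin, which captures free hemoglobin, rose, and *SAA4*, a serum amyloid A protein made constitutively, fell. *SAA4* was 2.04, 1.85 and 2.39 CPM in control, 1.34, 0.509 and 0.753 CPM in Ako-3 and 0.453, 0.457 and 1.31 CPM in Mko-3 (-1.30 ± 0.34 in Ako-3, adjusted p = 3.63e-03). *HP* was 39.6, 37.0 and 36.7 CPM in control, 103, 106 and 120 CPM in Ako-3 and 12.2, 14.2 and 9.66 CPM in Mko-3. The clones thus lay on opposite sides of control, with *HP* at 1.53 ± 0.08 in Ako-3 (adjusted p = 3.54e-12) and -1.65 ± 0.11 in Mko-3 (adjusted p = 1.30e-10). *CRP* had too few reads to be tested.

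**Figure D2:**
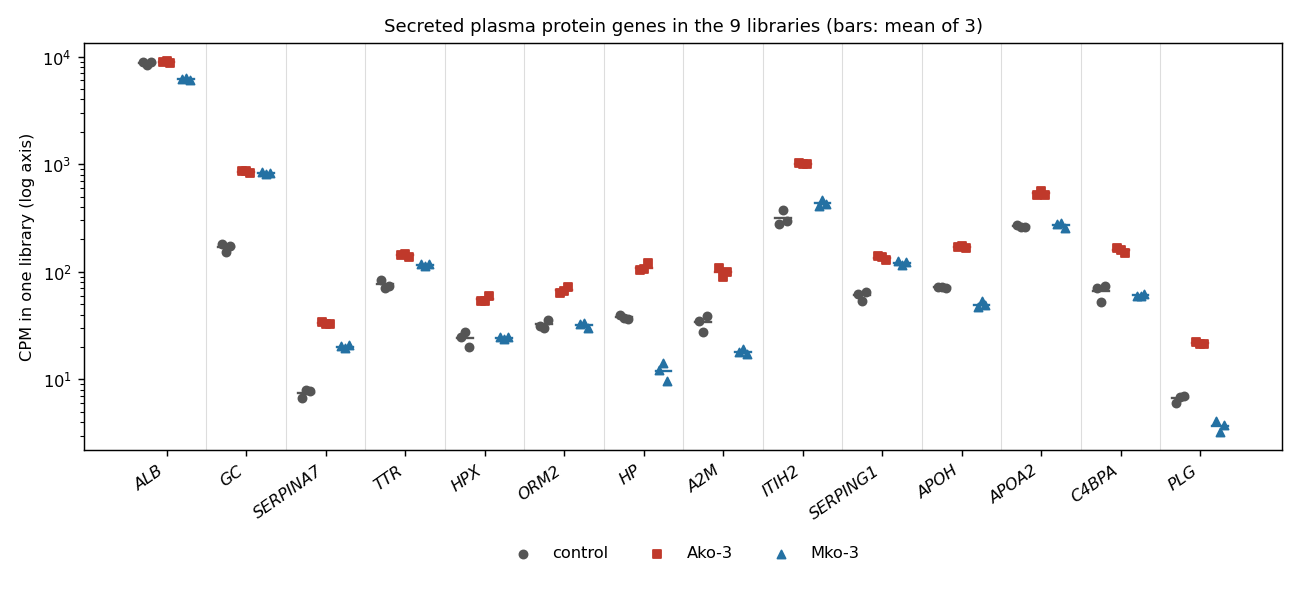
CPM on a log axis for 14 genes of secreted plasma proteins in each of the 9 libraries (grey circles control, red squares Ako-3, blue triangles Mko-3, bars the mean of 3). ALB is level between control and Ako-3, GC is high in both clones, and HP, A2M, APOH and PLG are high in Ako-3 while Mko-3 lies below control.

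Of 15 apolipoprotein genes tested, 12 had a positive log2 fold change, 2 rose and *APOB* fell, with a median of 0.51 beside -0.21 in Mko-3. *APOH*, beta-2-glycoprotein I, which binds anionic phospholipid, went from 72.2, 71.7 and 70.9 CPM to 169, 174 and 165 CPM (1.23 ± 0.06, adjusted p = 3.90e-12), and Mko-3 was at 46.6, 53.0 and 48.9 CPM. *APOA2*, a structural protein of high density lipoprotein, was 271, 262 and 259 CPM in control and 523, 567 and 522 CPM in Ako-3. Its value of 1.02 ± 0.06 dropped to 0.98 without replicate 2 of Ako-3, and Mko-3 was at 277, 283 and 255 CPM. *APOE*, the ligand of remnant receptors, was higher in every Ako-3 library at 1815, 2070 and 1877 CPM against 1501, 1226 and 1208 CPM, a log2 fold change of 0.54 ± 0.08.

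In 3 lists of lipid metabolism edgeR called 0 genes with all libraries, namely 18 of lipoprotein assembly, 22 of fatty acid synthesis and 23 of cholesterol synthesis. At an unadjusted p under 0.05 these lists held 11, 17 and 14 genes, and DESeq2 called 0, 0 and 0. In edgeR 1 gene of lipoprotein assembly rose without replicate 1 of control, without replicate 2 of Ako-3 or with a replicate block, and 1 gene of fatty acid synthesis rose without replicate 2 of control. *PLIN2*, which coats lipid droplets, was 366, 353 and 370 CPM in control and 380, 406 and 355 CPM in Ako-3. *CPT1A*, the entry step of fatty acid oxidation, and *SCD*, the stearoyl-CoA desaturase, had log2 fold changes of -0.19 and 0.13. *FASN*, fatty acid synthase, was 1170, 1634 and 1146 CPM in control and 1576, 1563 and 1613 CPM in Ako-3, so control replicate 2 reached the Ako-3 level. The log2 fold change of *FASN* was 0.26 ± 0.13 with that library and 0.44 ± 0.05 without it. In plasma lipid remodelling 2 of 19 genes rose. *ANGPTL8*, a secreted regulator of lipoprotein lipase, rose in Ako-3 alone, from 2.85, 3.04 and 2.83 CPM to 9.96, 9.98 and 7.18 CPM, and was 2.04, 1.14 and 1.31 CPM in Mko-3. *PLIN5* and *HSD17B13*, both lipid droplet proteins, fell. *PLIN5* was -1.14 ± 0.19 and its value without replicate 1 of control was -0.97.

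Bile acid genes had a median log2 fold change of 0.03 over 23 tested, with 2 rises and 2 falls. There was 1 rise without replicate 2 or 3 of control or replicate 1 or 3 of Ako-3. *AKR1D1*, which reduces the steroid ring of bile acid precursors, rose from 4.08, 3.30 and 2.94 CPM to 15.7, 19.4 and 17.3 CPM, and Mko-3 was at 13.5, 14.9 and 14.3 CPM. *SLC27A5*, which activates bile acids for conjugation, fell by 1.71 on the log2 scale. *SLCO1B3*, an uptake transporter of the sinusoidal membrane, was lower in Ako-3 than in both other groups, at 0.733, 1.07 and 1.10 CPM against 1.99, 2.77 and 2.94 CPM in control and 2.21, 1.54 and 2.15 CPM in Mko-3. *CYP7A1*, the rate-limiting enzyme of the classical pathway, had 0 counts in all libraries, and *ABCB11*, the bile salt export pump, had too few to be tested.

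Drug-metabolizing enzymes of the oxidation phase split between rises and falls. Among 25 cytochrome P450 and reductase genes 3 rose and 4 fell, with a median of -0.03. *CYP2B6*, which oxidizes many drugs, rose from 15.2, 15.2 and 17.2 CPM to 63.6, 67.7 and 59.9 CPM (1.99 ± 0.09, adjusted p = 6.06e-13) and was 36.9, 36.6 and 43.3 CPM in Mko-3. *CYP1A1*, the enzyme induced through the aryl hydrocarbon receptor, fell from 38.1, 33.7 and 40.7 CPM to 11.8, 12.9 and 12 CPM (-1.63 ± 0.10, adjusted p = 6.81e-11). Its receptor gene *AHR* fell as well, from 148, 138 and 142 CPM to 52.5, 57.6 and 50.8 CPM, with 68.0, 68.8 and 62.7 CPM in Mko-3. *CYP3A4* was too low to be tested.

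Of 7 UDP-glucuronosyltransferases tested 3 rose, of 16 glutathione transferases 3, of 18 sulfotransferases and other conjugating enzymes 2, and of 32 reductases, dehydrogenases and esterases 7. *UGT2A3* and *UGT2B4*, which attach glucuronic acid to bile acids and steroids, were higher in Ako-3 than in both other groups. *UGT2A3* was also above control in Mko-3, by 0.94 ± 0.15 on the log2 scale, without reaching the fold threshold. *UGT2B4* was 12.8, 9.64 and 12.1 CPM in control, 30.2, 29.5 and 25.7 CPM in Ako-3 and 12.9, 13.1 and 12.2 CPM in Mko-3. *GSTA1*, the alpha class transferase abundant in hepatocytes, had the largest of these changes, from 1.88, 3.23 and 3.44 CPM to 17.3, 16.4 and 19.1 CPM (2.63 ± 0.17, adjusted p = 1.91e-10). Mko-3 held 1.53, 1.89 and 1.37 CPM of *GSTA1*. *GSTA2* rose from 2.31, 2.44 and 2.83 CPM to 7.82, 6.47 and 6.14 CPM. *SULT1A2*, a phenol sulfotransferase, rose from 3.17, 2.84 and 2.55 CPM to 10.9, 12.9 and 10.1 CPM. *AKR1C2*, which inactivates dihydrotestosterone, was 32.2, 27.5 and 36.0 CPM in control, 67.2, 65.8 and 72.3 CPM in Ako-3 and 11.2, 11.3 and 11.9 CPM in Mko-3. Its log2 fold change of 1.09 ± 0.09 was 0.998 without replicate 2 of control. *CES3*, a carboxylesterase, was higher in Ako-3 than in both other groups. In Mko-3 *CES3* was 0.64 ± 0.17 above control without reaching the fold threshold. *ALDH8A1*, an aldehyde dehydrogenase of the kynurenine route, rose in both clones. It went from 3.38, 3.23 and 3.50 CPM to 19.4, 23.3 and 18.1 CPM in Ako-3. Several of these families have near-identical copies, among them the alpha class transferases, the AKR1C enzymes, the sulfotransferases, the orosomucoids and the metallothioneins, and reads could be split between copies in counting, so values of single members are uncertain.

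In the urea cycle, *OTC*, which makes citrulline, and *ARG1*, which releases urea, rose among 16 genes tested. *ARG1* was 23.5, 27.4 and 26.2 CPM in control, 65.6, 72.5 and 57.4 CPM in Ako-3 and 24.7, 21.6 and 22.2 CPM in Mko-3, so the rise was specific to Ako-3 (1.34 ± 0.09, adjusted p = 3.92e-10, and 1.51 ± 0.07 against Mko-3, adjusted p = 6.63e-27). *OTC* was 6.28, 6.34 and 6.99 CPM in control, 24.9, 25.5 and 24.4 CPM in Ako-3 and 13.7, 13.9 and 14.5 CPM in Mko-3. The extrahepatic form *ARG2* went the other way (-1.17 ± 0.16), and *CPS1*, the entry enzyme of the cycle, was low in both groups at 0.594 to 1.39 CPM in control and 0.977 to 1.73 CPM in Ako-3. Among 38 genes of amino acid catabolism 3 rose and 1 fell, and 2 fell without replicate 1 of control or without any 1 of the Ako-3 libraries. *AGXT2*, a mitochondrial aminotransferase, was 10.7, 12.9 and 10.1 CPM in control, 24.4, 29.4 and 27.7 CPM in Ako-3 and 4.93, 5.48 and 6.59 CPM in Mko-3. *KYNU*, kynureninase, rose by 1.11 on the log2 scale and by 0.90 without replicate 2 of control. *MAT1A*, the liver enzyme that makes S-adenosylmethionine, was 15.4, 13.3 and 14.9 CPM in control, 31.8, 32.0 and 29.8 CPM in Ako-3 and 7.25, 8.74 and 11.1 CPM in Mko-3.

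Of the defining members of the lists the largest change was that of *SLC2A2*, the glucose transporter GLUT2 of hepatocytes. It was nearly silent in control, at 0.269, 0.198 and 0.333 CPM, and reached 7.82, 9.06 and 6.54 CPM in Ako-3 (4.81 ± 0.28, adjusted p = 3.89e-11). Mko-3 lay between them at 1.47, 2.68 and 1.89 CPM, below Ako-3 by the direct test (1.95 ± 0.19, adjusted p = 6.48e-14). The rest of the 43 genes of glycolysis, gluconeogenesis and glycogen split into 2 further rises and 3 falls, of which 1 fall was left without replicate 3 of control. *PFKFB3*, which makes the activator of phosphofructokinase, rose in both clones, from 65.6, 64.9 and 66.8 CPM to 188, 198 and 185 CPM in Ako-3. *ENO2*, an enolase typical of neurons, fell in Ako-3 alone, from 25.0, 16.3 and 20.5 CPM to 7.94, 7.54 and 5.73 CPM, with 23.6, 22.2 and 21.3 CPM in Mko-3. *PCK1*, the rate-limiting enzyme of gluconeogenesis, was 84.6, 64.7 and 75.0 CPM in control and 68.9, 74.1 and 62.4 CPM in Ako-3 (-0.14 ± 0.09), and it was 20.7, 15.8 and 19.0 CPM in Mko-3. *PDK2* and *GCKR*, regulators of pyruvate dehydrogenase and glucokinase, were called at values close to the threshold, and *PDK2* went to 0.83 and *GCKR* to -0.997 without replicate 3 of control.

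**Figure D3:**
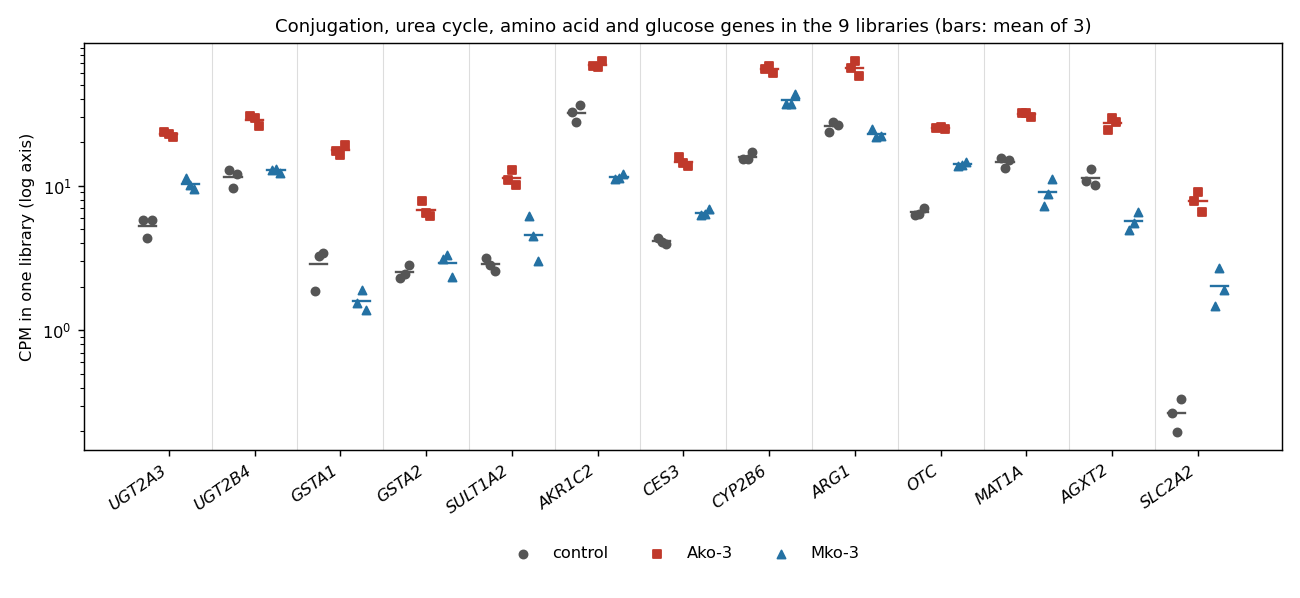
CPM on a log axis for 13 genes of conjugation, the urea cycle, amino acid use and glucose entry in each of the 9 libraries (grey circles control, red squares Ako-3, blue triangles Mko-3, bars the mean of 3). Ako-3 lies above control for every gene shown, and AKR1C2, MAT1A and AGXT2 lie below control in Mko-3.

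ATF4 is the transcription factor of the amino acid response. Of 41 genes tested 9 fell and 38 had a negative log2 fold change, with a median of -0.57, and Mko-3 had the same median of -0.57 against the same control libraries. Among its targets *ASNS*, asparagine synthetase, was 18.5 to 22.1 CPM in control, 3.73, 3.77 and 3.01 CPM in Ako-3 and 4.25, 3.71 and 3.13 CPM in Mko-3. *DDIT3*, encoding the stress factor CHOP, *ATF3*, *MTHFD2*, a mitochondrial folate enzyme, and *PPP1R15A*, a phosphatase subunit that restarts translation, fell by 1.67, 1.92, 1.51 and 1.45 on the log2 scale. *ATF3* was lower in Ako-3 than in Mko-3 (12.1, 13.6 and 13.5 CPM against 21.1, 21.6 and 20.4 CPM), with a log2 difference of -0.68. The mRNA of *ATF4* itself was 509, 558 and 472 CPM in control and 469, 494 and 471 CPM in Ako-3, and the groups overlapped.

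Genes for cysteine and glutathione supply gave 4 falls and 1 rise among 36 tested. Of the 36 genes 18 had a positive and 18 a negative log2 fold change, with a median of 0.02. The rise was *MAT1A*, whose values are given above with amino acid catabolism. *SLC7A11* and *CHAC1* were among the 10 largest falls with an average log2 CPM of at least 3. *SLC7A11*, the cystine importer, fell from 86.8, 101 and 101 CPM to 21.4, 21.6 and 20.3 CPM (-2.19 ± 0.08, adjusted p = 7.42e-14). *CTH*, which makes cysteine from cystathionine, fell from 71.4, 59.1 and 74.0 CPM to 17.1, 17.1 and 14.1 CPM. *CHAC1*, which degrades glutathione, fell from 57.9, 60.4 and 51.4 CPM to 14.9, 11.8 and 10.8 CPM. These 3 genes fell in Mko-3 too, where *CHAC1* was 14.3, 16.6 and 14.5 CPM. *GCLC*, the rate-limiting enzyme of glutathione synthesis, was 43.5, 45.9 and 45.3 CPM in control and 39.6, 42.7 and 37.9 CPM in Ako-3.

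The promoters of *CHAC1* and *ASNS* are shown because both genes fell and each holds a match to the core of the element read by C/EBP and ATF4 dimers. The windows are the 250 bases before the RefSeq start on GRCh38.p14, written 5′ to 3′ on the strand of the gene, with matches to TGATGNAA on either strand in capitals. They lie at chr15:40953221-40953470 on the plus strand and chr7:97872409-97872658 on the minus strand.
CHAC1 promoter: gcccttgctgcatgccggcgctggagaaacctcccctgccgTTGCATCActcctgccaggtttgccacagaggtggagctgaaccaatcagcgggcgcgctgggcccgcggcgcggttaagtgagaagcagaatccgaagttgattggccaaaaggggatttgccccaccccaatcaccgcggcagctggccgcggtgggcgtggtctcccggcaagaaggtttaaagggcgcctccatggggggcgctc
ASNS promoter: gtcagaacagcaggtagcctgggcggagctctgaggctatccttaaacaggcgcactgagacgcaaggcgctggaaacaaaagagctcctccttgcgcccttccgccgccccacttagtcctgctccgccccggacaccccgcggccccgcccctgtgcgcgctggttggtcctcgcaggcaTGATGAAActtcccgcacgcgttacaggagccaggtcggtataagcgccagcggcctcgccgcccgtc
Of 35116 promoter windows of this length 3.14% held at least 1 match. Of the 41 ATF4 targets tested 34 had a window in the table and 3 of these (8.82%) held a match, *ASNS*, *ATF3* and *AARS1*. Of the 9 that fell 8 had a window, and 2 of these held a match, *ASNS* and *ATF3*. *CHAC1* was listed with the glutathione genes, for which no such share was taken. A match is a description of the letters and not evidence of a bound site.

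Chemokine and NF-kB genes were mostly lower in Ako-3. Of 24 tested 1 rose, 7 fell and 20 had a negative log2 fold change, with a median of -0.60 in Ako-3 and -0.26 in Mko-3. Without replicate 1 of control 4 members were called lower instead of 7. *CXCL8*, the neutrophil attractant interleukin 8, was 125, 123 and 111 CPM in control and 49.8, 49.5 and 48.2 CPM in Ako-3, and Mko-3 kept the control level at 124, 121 and 122 CPM. The fall was thus specific to Ako-3, at -1.29 ± 0.07 against control (adjusted p = 1.21e-11) and -1.31 ± 0.05 against Mko-3 (adjusted p = 9.59e-34). *CXCL3*, a related attractant, followed the same pattern, from 23.5, 13.5 and 16.9 CPM to 8.67, 7.18 and 9.84 CPM, with 18.3, 17.7 and 17.3 CPM in Mko-3. *NFKB2* and *RELB*, subunits of the noncanonical pathway, fell in Ako-3. *NFKB2* was 175, 150 and 152 CPM in control, 70.5, 72.3 and 66.8 CPM in Ako-3 and 85.8, 77.1 and 80.3 CPM in Mko-3. *RELB* was 42.6, 36.1 and 39.0 CPM in control, 12.9, 13.7 and 13.5 CPM in Ako-3 and 15.7, 16.2 and 17.8 CPM in Mko-3. *CXCL10*, an attractant of T cells induced by interferon, was the rise, from 2.52, 2.51 and 3.77 CPM to 12.8, 11.5 and 11.6 CPM, with 4.02, 4.17 and 4.70 CPM in Mko-3.

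Metallothioneins are small cysteine-rich proteins that bind zinc and copper. Of 13 genes of this list tested 4 fell, namely *MT1E*, *MT1F*, *MT1G* and *MT2A*. *MT2A* was 57.5, 43.3 and 40.3 CPM in control, 4.76, 2.34 and 3.01 CPM in Ako-3 and 9.0, 8.11 and 9.85 CPM in Mko-3. It fell by 3.83 ± 0.22 on the log2 scale (adjusted p = 3.37e-07) and was lower than in Mko-3 by 1.43 ± 0.18 (adjusted p = 3.81e-10). *MT1F* went from 5.48, 4.22 and 4.77 CPM to 0.733, 0.509 and 0.405 CPM, with 1.64, 1.83 and 2.41 CPM in Mko-3. *MT1E* was 3.38, 1.32 and 2.83 CPM in control, 0.428, 0.306 and 0.116 CPM in Ako-3 and 1.98, 3.08 and 2.61 CPM in Mko-3. *MT1G* was 9.13, 5.02 and 7.16 CPM in control and had at most 1 count in any Ako-3 library, so no fold is given.

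The promoter of *MT2A* is shown because the gene had the largest fall among called genes with an average log2 CPM of at least 3 and because metallothionein genes are known for repeated metal response elements. The window is chr16:56608334-56608583 on the plus strand of GRCh38.p14 and holds 7 matches to the core TGCNCNC on either strand, in capitals.
MT2A promoter: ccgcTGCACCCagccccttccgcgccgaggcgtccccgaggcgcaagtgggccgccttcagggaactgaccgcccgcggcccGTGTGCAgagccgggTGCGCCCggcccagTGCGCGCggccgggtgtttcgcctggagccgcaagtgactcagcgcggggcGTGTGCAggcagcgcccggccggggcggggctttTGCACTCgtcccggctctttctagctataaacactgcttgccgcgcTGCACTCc
At least 1 match was held by 49.1% of all windows, at least 4 by 1.77% and at least 7 by 0.0854%. Of the 13 genes of this list tested 9 had a window, and 3 of these (33.3%) held a match, *MT1X*, *MT2A* and *SLC30A1*. *MT1X*, which was not called, held 4 matches. The matches describe the letters and are no evidence for a link to the fall. The genes *MT1E*, *MT1F* and *MT1G* had no window in the table.

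Genes of iron handling included 2 rises among 22, *TFR2*, the iron sensor of hepatocytes, from 74.6, 66.5 and 66.2 CPM to 197, 208 and 178 CPM, and *HJV*, a co-receptor in hepcidin control, which was 0.99 without replicate 2 of control. *TFR2* was also high in Mko-3 at 144, 140 and 138 CPM. Vitamin genes were called once among 13, *RARRES2*, with 0.62 without replicate 2 of Ako-3.

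Of 34 receptor genes tested 7 fell and 1 rose, and of 30 genes of hepatokines and the insulin and FGF19 axes 6 fell. The rise, *AHRR*, a repressor of the aryl hydrocarbon receptor, was 0.90 without replicate 3 of Ako-3. *NR3C1*, the glucocorticoid receptor, went from 24.2, 26.1 and 28.6 CPM to 13.1, 11.1 and 9.21 CPM, and *NR1D1*, a clock repressor, from 25.5, 16.6 and 19.6 CPM to 8.0, 6.06 and 6.08 CPM. Both fell in Mko-3 as well. The clock activator *RORA* was lower in Ako-3 than in both other groups. *NR1H4*, the bile acid receptor FXR, was lower without reaching the fold threshold (-0.41 ± 0.07).

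Among secreted regulators, *GDF15*, which curbs appetite, was 258, 247 and 227 CPM in control, 67.4, 76.1 and 66.5 CPM in Ako-3 and 175, 170 and 161 CPM in Mko-3. The differences from control (-1.81 ± 0.07, adjusted p = 8.72e-14) and from Mko-3 (-1.26 ± 0.05, adjusted p = 7.03e-34) both passed. *INHBB*, a subunit of activin B, was 7.52, 7.85 and 8.21 CPM in control, 1.83, 1.78 and 1.22 CPM in Ako-3 and 12.7, 10.7 and 14.5 CPM in Mko-3, so the clones moved apart. *FGF19*, the hormone that restrains bile acid synthesis, went from 47.8, 43.1 and 46.8 CPM to 17.2, 14.1 and 14.4 CPM, with 31.8, 31.6 and 30.1 CPM in Mko-3. *FGFR1* fell in both clones and further in Mko-3, to 10.3, 10.1 and 9.32 CPM in Ako-3 and 4.19, 2.80 and 3.52 CPM in Mko-3 from 34.9, 32.0 and 29.5 CPM.

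**Figure D4:**
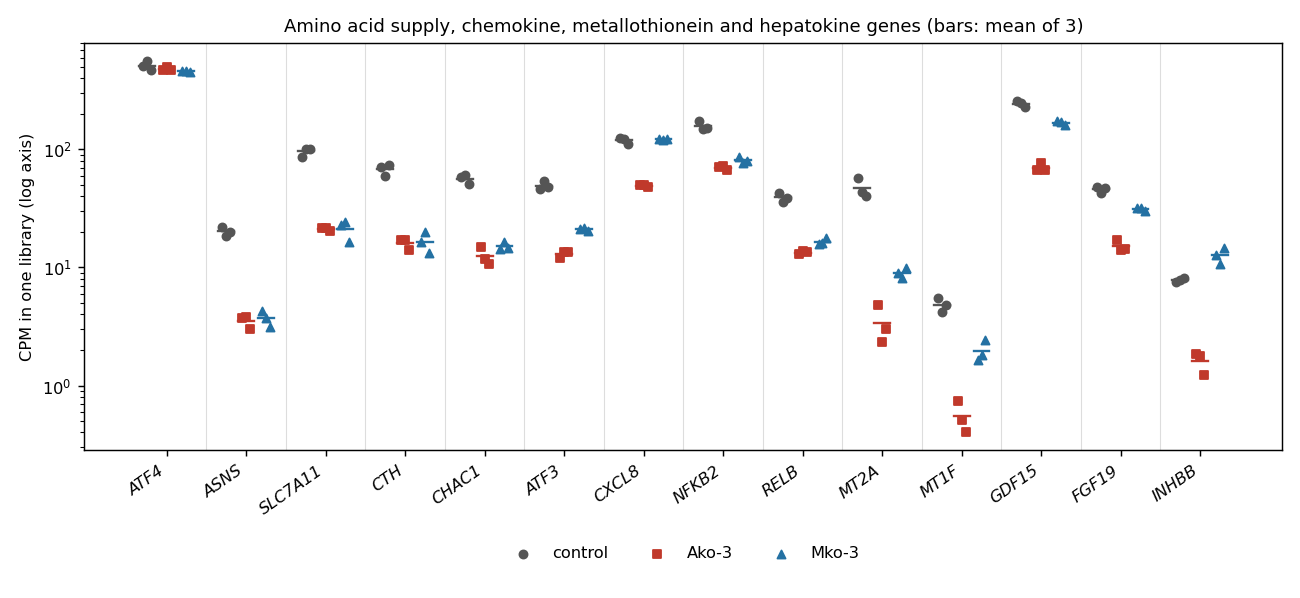
CPM on a log axis for 14 genes of amino acid supply, chemokines, metallothioneins and hepatokines in each of the 9 libraries (grey circles control, red squares Ako-3, blue triangles Mko-3, bars the mean of 3). ATF4 overlaps between control and Ako-3, ASNS to ATF3 are low in both clones, and CXCL8 and INHBB are low in Ako-3 only.

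Transcription factors of the hepatocyte lineage were called once among 21, *ATF5*, which rose in both clones, and 2 rose without replicate 1 of control or replicate 1 of Ako-3. *HNF4A*, the central regulator of hepatocyte genes, was 476, 466 and 475 CPM in control, 762, 781 and 775 CPM in Ako-3 and 601, 581 and 576 CPM in Mko-3, 0.70 ± 0.06 above control on the log2 scale in Ako-3. Biliary *KRT19* was not called in Ako-3 at 13, 14.3 and 12.7 CPM against 9.45, 9.37 and 9.44 CPM, while Mko-3 held 73.4, 68.7 and 73.5 CPM. *LGR5*, a receptor of progenitor cells, rose from 3.28, 7.39 and 5.11 CPM to 21.0, 18.7 and 18.7 CPM. In the endoplasmic reticulum, *HSPA5*, the chaperone BiP, was higher in every Ako-3 library (1060, 1087 and 1086 CPM against 572, 710 and 571 CPM), a log2 fold change of 0.80 ± 0.07. *MANF* and *CRELD2*, secreted under load on this compartment, rose, and *ERN1*, its sensor IRE1, fell by 1.39 on the log2 scale. Of 28 genes of chaperones and protein folding tested 2 rose and 1 fell, with a median of 0.30. In Mko-3 the median of this list was 0.41, and 5 rose and 1 fell. *MANF* was 0.99 without replicate 3 of control.

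Genes of the DNA replication fork had the highest median of the 34 lists, 0.82 in Ako-3 and 1.08 in Mko-3, and 16 of 36 rose. Control replicate 2 was the highest of the control libraries for 34 of these 36 genes, and for 5726 of the 15787 genes tested. Their summed level was 1752, 2549 and 1727 CPM in control and 4001, 3984 and 4216 CPM in Ako-3. *PCNA*, the sliding clamp, was 91.1, 173 and 90.0 CPM in control and 384, 370 and 378 CPM in Ako-3, a log2 fold change of 1.68 ± 0.31 (adjusted p = 0.0119) with all libraries and 2.05 ± 0.06 (adjusted p = 7.28e-21) without control replicate 2. Without it 18 of the 36 genes rose. Of 20 mitosis genes edgeR and DESeq2 called 0, and 11 had an unadjusted p under 0.05. A positive log2 fold change was held by 18 of them, with a median of 0.21. Control replicate 2 was the highest of the control libraries for 18 of the 20 genes as well. Without it the median was 0.325 and 0 genes were called in edgeR. *MKI67* was 0.79 ± 0.19 with all libraries and 0.95 ± 0.19 without control replicate 2. The same control library was the lowest of the controls for 14 of the 17 protease inhibitor genes and 24 of the 32 complement genes. Over all genes tested it was the lowest for 5424 of 15787. Other lists varied, with 9 of 12 acute phase genes and 2 of 23 cholesterol synthesis genes lowest in it. Without this library 6 genes rose in each of the protease inhibitor and complement lists. What sets this library apart was not tested.

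Outside the lists, the genes specific to Ako-3 were of mixed kinds. *BST2*, tetherin, an interferon-induced protein that holds budding virus at the membrane, was 1.83, 0.792 and 1.05 CPM in control, 17.0, 21.2 and 19.4 CPM in Ako-3 and 3.91, 1.66 and 2.15 CPM in Mko-3, where it was also called higher. It was the largest rise among called genes with an average log2 CPM of at least 3 (3.93 ± 0.20, adjusted p = 3.83e-12). *WNT5A*, a noncanonical Wnt ligand, went from 8.70, 6.60 and 6.72 CPM to 23.7, 26.1 and 20.4 CPM and was 3.28, 2.86 and 2.68 CPM in Mko-3. *RBP2*, an intracellular retinol carrier, went from 79.3, 74.3 and 73.1 CPM to 178, 201 and 196 CPM, with 41.6, 37.1 and 34.1 CPM in Mko-3. The cancer-testis antigen *MAGEC2*, the glycosyltransferase *B4GALNT2* and the kinases *DGKK* and *ALPK2* completed the 12 named rises, along with the liver genes already given.

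The falls specific to Ako-3 included secreted and signalling genes. *SPARC*, a collagen-binding matrix protein, was 34.8, 25.7 and 32.7 CPM in control, 3.42, 6.06 and 5.56 CPM in Ako-3 and 27.8, 25.1 and 29.6 CPM in Mko-3 (-2.63 ± 0.17, adjusted p = 7.73e-09). *UNC5B*, a netrin receptor, was 44.9, 25.1 and 41.4 CPM in control, 6.05, 6.42 and 5.91 CPM in Ako-3 and 43.2, 39.1 and 46.7 CPM in Mko-3. *AREG*, amphiregulin, a ligand of the EGF receptor, went from 31.7, 16.0 and 26.5 CPM to 4.40, 5.65 and 4.11 CPM, with 25.8, 19.2 and 24.2 CPM in Mko-3. *DUSP5*, a phosphatase that acts on ERK, was 25.7, 25.4 and 25.8 CPM in control and 8.49, 7.69 and 7.76 CPM in Ako-3. In Mko-3 these 4 genes differed from control by -0.19, 0.19, -0.12 and 0.06 on the log2 scale and were not called. *NPTXR*, *TRIM29*, *GBP2* and *NPDC1* were further members, and *NPTXR* was above control in Mko-3 at 58.5, 49.6 and 60.5 CPM against 18.5, 13.3 and 14.4 CPM. Over all genes specific to Ako-3, the median log2 fold change of Mko-3 against control was -0.006 for the 161 rises and -0.045 for the 124 falls, and 12 of the rises and 15 of the falls were called in the opposite direction in Mko-3.

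**Figure D5:**
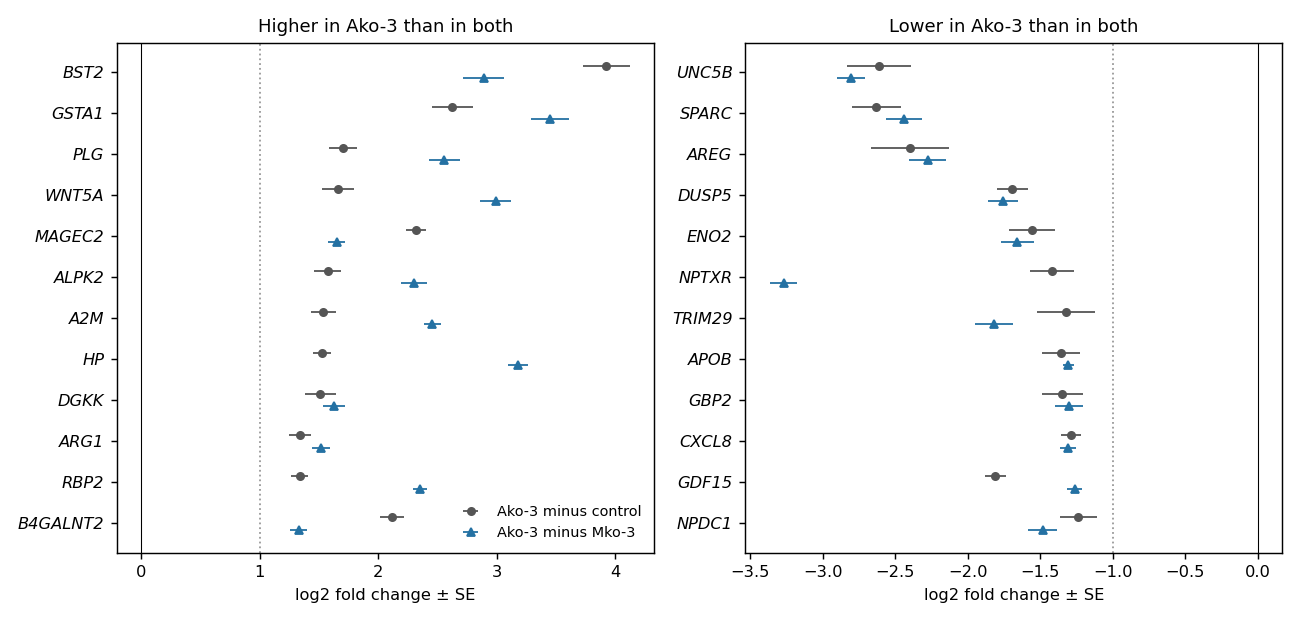
Log2 fold change with its SE for the 12 rises (left) and 12 falls (right) specific to Ako-3 that lay furthest from both other groups, as Ako-3 minus control (grey circles) and Ako-3 minus Mko-3 (blue triangles), with dotted lines at the threshold of 1. BST2, GSTA1 and PLG lead the rises and UNC5B, SPARC and AREG the falls.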

How the data were processed

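RNA sequencing of 9 libraries was analysed, 3 each of Huh-7 control, Ako-3 and Mko-3 cells, grouped by their labels. The authors purified polyadenylated mRNA, aligned reads to hg38 with HISAT2 2.0.5 and deposited gene counts from featureCounts 1.5.0-p3 together with FPKM. The coordinates of *APOB* in the files equal those of the hg38 annotation used here. From the deposited raw counts of 58735 genes, low genes were removed with a minimum count of 10 (filterByExpr), libraries were scaled by TMM, and each pair of groups was fitted alone with the quasi-likelihood test of edgeR 4.0.16 in R 4.3.3. Calls used a log2 threshold of 1 in either direction together with a Benjamini-Hochberg threshold of 0.05. SE is the log2 fold change divided by the square root of F. CPM values are TMM-scaled over the 9 libraries. The deposited FPKM were used only to compare levels between genes. The code was tested on simulated data. The chi-square per degree of freedom between libraries of 1 group was 2.43 to 8.88, so none was counted as a repeat of another.

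The lists (34, with 938 symbols) and the named genes were chosen with earlier results of these data known. Named were *APOB*, *MTTP*, the defining members of each list, up to 4 rises and 4 falls per list by adjusted p, the 10 largest rises and falls with an average log2 CPM of at least 3, and, above the same level in both fits, the 12 rises and 12 falls specific to Ako-3 with the largest smaller fold. Other called members were named without statistics, except *CXCL3*, whose CPM values are given. *AARS1*, *MT1X* and *SLC30A1* were named for a promoter match and *LYZ* for its share of a marker sum. *CXCL3* and these genes were chosen after their values were seen. Of the symbols, 13 were matched through current gene names and 27 genes whose names had turned into dates were identified by gene ID. Promoters come from RefSeq and exon 6 from hg38. The alternatives were DESeq2 1.42.0, its size factors in edgeR, upper-quartile factors, no filter, at least 10 counts in every library, all 9 libraries in 1 fit, a replicate block and leaving out each library. A few genes that the rule names are not reported here.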

Additional observations from a re-analysis of the deposited data

How the results depend on the processing

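Requiring 10 counts in every library lowered the counts of called genes by more than 1.5 times, since fewer genes are then tested: against control to 841 (359 rises, 482 falls), against Mko-3 to 511 (318 rises, 193 falls) and specific to Ako-3 to 145 (75 rises, 70 falls). Of these, 828 and 143 were also called in the reported fits. Under the other settings, the 1345 genes called against control ranged from 1248 with DESeq2 to 1617 with no filter, and from 1254 to 1637 when 1 library was left out, the highest without replicate 2 of control. The corresponding leave-one-out ranges were 895 to 964 for the 890 genes called against Mko-3 and 270 to 296 for the 285 specific to Ako-3. Directions of single genes were kept except for genes at no change: *ALB* was -0.027 with upper-quartile factors and between -0.0040 (without replicate 2 of control) and 0.044 (without replicate 3 of Ako-3) when 1 library was left out, and *C3* was -0.011 with upper-quartile factors. Among named genes, *BSCL2*, *PDK2* and *AHRR* lost their call under 5 or more settings, and the cause was not tested. With no filter 7 metallothionein and zinc genes fell instead of 4, and with 10 counts in every library 1 did. A replicate block gave 1336 genes called against control and 899 against Mko-3. The replicate numbers did not pair the samples: deviations of libraries with the same number correlated at -0.06, -0.08 and -0.12 between Ako-3 and control, and other numbers correlated better. Depth limits genes under about 10 counts, and 7 rises and 15 falls had a group with at most 3 counts in each library, for which no fold is a bound.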

Other observations

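The share of genes specific to Ako-3 is given for the chromosomes where it was high, out of 23 examined, with no test of whether the shares differ. On chromosome 6, 18 of 779 genes tested in both fits were higher than in control and Mko-3 (2.31%), beside 1.05% over all genes, and *GSTA1*, *PLG* and *ARG1* are among them. On chromosome X the share was 13 of 461 (2.82%) and on chromosome 21 it was 6 of 172 (3.49%). On chromosome 19, 19 of 1030 genes were lower than in both other groups (1.84%), beside 0.810% over all genes. Windows along the chromosomes were also compared. In windows of 10 Mb with at least 15 genes tested, the highest median log2 fold change against control was 0.37, at chr6:80000001-90000000 of hg38 over 43 genes, where Mko-3 had -0.24 and the direct difference was 0.55. The lowest median was -0.44, at chr21:10000001-20000000 over 16 genes, where Mko-3 had -0.32. The next lowest was at chrX:20000001-30000000, where the median over 24 genes was -0.40 in Ako-3 and 0.04 in Mko-3. No test of these windows was made.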
